A study of Homo sapiens with 18 samples.

Results

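This account follows 10 genes that are widely used as readouts of glucocorticoid signalling, FKBP5, TSC22D3, PER1, KLF9, DUSP1, SGK1, ERRFI1, ZBTB16, CRISPLD2 and TFCP2L1, in a human epithelial cell experiment with ionizing radiation. They were chosen by name, as the rows whose gene symbol equals a member of this list, and all 10 were found among the 40916 symbols of every count table. A transcript level is given as CPM, the gene's count divided by the library's total count and multiplied by 1000000. CPM is not divided by transcript length, so levels are compared between groups for one gene and not between genes. Except where a floor is named, folds and log2 fold changes come from fits that rescale the libraries. They can therefore differ from ratios of the CPM values printed.

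Glucocorticoids such as cortisol (hydrocortisone) cross the cell membrane and bind the glucocorticoid receptor, the product of NR3C1, which is held ready for the hormone by the HSP90 chaperone machinery. The bound receptor enters the nucleus, raises transcription of genes near its DNA elements and lowers that of many inflammatory genes. In epithelial cells the induced genes include feedback regulators of the receptor itself, circadian genes, and brakes on growth factor and stress kinase signalling. Most of these genes also respond to other signals, among them cyclic AMP, growth factors and stress.

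The study grew MCF10A, a non-tumorigenic human mammary epithelial line carrying H2B-GFP, and unlabelled HCT116, a human colorectal carcinoma line, alone and as mixed cultures seeded 1:1. Each culture type was left non-irradiated (NIR) or received 10 Gy (IR), with 3 biological replicates in each of the 6 groups and 18 libraries in all. The harvest is given as day 2 in the titles of the samples and as 72 h after irradiation in the series text. The MCF10A medium was F12:DMEM with horse serum, EGF, hydrocortisone, cholera toxin and insulin, whereas HCT116 was kept in McCoy's 5A with fetal bovine serum and with none of those additions named. Which medium the mixed cultures received is not given in the sources used here. In the monocultures, cell line and medium, hydrocortisone included, therefore changed together and cannot be told apart.

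The libraries held 25737818 to 40839835 counts. MCF10A libraries had counts of all 10 basal mammary markers listed, with KRT5 at 2883 ± 133 CPM and TP63 at 109 ± 5.65 CPM (SD, n = 3) without irradiation, while HCT116 had no TP63 counts there. Intestinal identity of HCT116 rested on CDX2, at 10.0 ± 1.14 CPM without irradiation and without counts in MCF10A. CDX1 had no counts in HCT116 and VIL1 stood at 0.177 ± 0.189 CPM. In the mixed cultures, genes specific to MCF10A put the MCF10A share of the RNA at 0.447% ± 0.0528 without and 1.24% ± 0.0662 with irradiation (SD, n = 3), far from the 50% of cells described. In bulk RNA, fewer MCF10A cells and less RNA per MCF10A cell cannot be told apart.

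Promoter windows of 9 of the 10 genes, 15 windows in all, were found in the RefSeq table for GRCh38.p14, each running from 250 bases before to 50 after an annotated start. They were searched on both strands for the core of the receptor's palindromic element (GNACANNNTGTNC), for one arm of it (AGAACA), for the cyclic AMP response element (TGACGTCA) and for the E-box bound by circadian factors (CACGTG). The palindrome core was in 0 of the 9 genes' windows and in 0.39% of all 35116 promoter windows. The arm AGAACA was found for FKBP5 and SGK1 (14.8% of all windows), the cyclic AMP response element for DUSP1 (1.85%), and the E-box for DUSP1, FKBP5 and PER1 (7.26%). The motifs do not overlap in the windows printed, and a window without a match says only that those letters are not in it. A window of each of the 4 genes with a match is shown 5′ to 3′ on the gene's strand, which is the minus strand for each of them, with the matching letters in capitals.
DUSP1, chr5:172771146-172771445, minus strand: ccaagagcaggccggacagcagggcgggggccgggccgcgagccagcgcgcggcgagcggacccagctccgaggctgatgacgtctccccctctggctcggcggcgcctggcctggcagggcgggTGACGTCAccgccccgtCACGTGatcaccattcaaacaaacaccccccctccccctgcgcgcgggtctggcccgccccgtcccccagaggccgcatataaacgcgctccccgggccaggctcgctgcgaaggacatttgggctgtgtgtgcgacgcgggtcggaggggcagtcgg
PER1, chr17:8152355-8152654, minus strand: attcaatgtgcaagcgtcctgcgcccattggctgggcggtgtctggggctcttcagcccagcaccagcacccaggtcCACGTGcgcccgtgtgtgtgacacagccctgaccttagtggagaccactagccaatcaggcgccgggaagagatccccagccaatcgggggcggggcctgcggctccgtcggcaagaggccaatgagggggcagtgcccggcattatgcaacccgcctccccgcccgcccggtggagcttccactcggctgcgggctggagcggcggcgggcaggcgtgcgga
FKBP5, chr6:35728534-35728833, minus strand: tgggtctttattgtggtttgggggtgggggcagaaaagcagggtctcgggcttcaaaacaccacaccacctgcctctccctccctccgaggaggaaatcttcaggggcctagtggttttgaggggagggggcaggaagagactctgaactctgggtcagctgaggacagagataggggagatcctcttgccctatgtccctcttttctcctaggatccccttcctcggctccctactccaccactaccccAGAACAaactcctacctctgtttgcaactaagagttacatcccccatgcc
SGK1, chr6:134177812-134178111, minus strand: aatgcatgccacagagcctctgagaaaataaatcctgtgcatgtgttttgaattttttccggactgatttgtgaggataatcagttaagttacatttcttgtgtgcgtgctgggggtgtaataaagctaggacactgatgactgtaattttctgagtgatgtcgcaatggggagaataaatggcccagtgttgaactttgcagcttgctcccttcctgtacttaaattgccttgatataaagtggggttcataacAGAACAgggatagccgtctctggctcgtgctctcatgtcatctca
In the DUSP1 window the capitals mark the cyclic AMP response element followed by the E-box, in the PER1 window the E-box, and in the FKBP5 and SGK1 windows AGAACA.

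Without irradiation, HCT116 in its medium held less RNA than MCF10A in its medium for 7 of the 10 genes and more for 3, by edgeR's quasi-likelihood test with Benjamini-Hochberg adjustment over all genes tested (adjusted p under 0.05, the threshold for a call throughout). The background was high, since 74.8% of 16568 genes were called, 38.7% higher and 36.1% lower in HCT116, so the count of 10 of 10 is to be read against that share. The median log2 difference of the 10 genes was -1.61 beside 0.05 for all genes. The sizes were very uneven: DUSP1, SGK1, FKBP5, TFCP2L1 and ZBTB16 were between 4.69-fold and at least 1653-fold lower in HCT116, while PER1 and KLF9 stood at nearly the same level in both lines. ERRFI1 and CRISPLD2 ran the other way. ZBTB16 passed the low-count filter through MCF10A alone and CRISPLD2 through HCT116 alone, which fixed their directions.

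FKBP5 (chr6:35573590-35728583, GRCh38.p14) encodes an HSP90 co-chaperone that lowers the receptor's affinity for hormone, and its RNA is a standard marker of receptor activity. FKBP5 stood at 961, 921 and 981 CPM in the 3 non-irradiated MCF10A libraries and at 209, 204 and 207 CPM in the 3 HCT116 libraries. All MCF10A libraries were far above all HCT116 libraries, a 5.30-fold difference (log2 fold change -2.41, SE 0.050, edgeR adjusted p = 1.7e-17). TSC22D3 (chrX:107713221-107775988), which encodes GILZ, a mediator of anti-inflammatory glucocorticoid effects, read 23.1, 23.9 and 20.5 CPM in MCF10A and 10.2, 13.4 and 15.6 CPM in HCT116. Its groups did not overlap and differed 1.98-fold (log2 fold change -0.99, SE 0.14, edgeR adjusted p = 3.7e-06).

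ZBTB16 (chr11:114059711-114256770) encodes the zinc finger repressor PLZF and is among the genes most strongly induced by glucocorticoids in many tissues. ZBTB16 read 55.2, 48.2 and 54.7 CPM in non-irradiated MCF10A, and no HCT116 library had any count. Against a floor of 3 counts over the HCT116 group, ZBTB16 was at least 1653-fold lower in HCT116, or at least 826-fold with counts halved. TFCP2L1 (chr2:121216587-121285202), a grainyhead-family transcription factor of epithelia, stood at 181, 161 and 178 CPM in MCF10A and 50.1, 39.3 and 37.4 CPM in HCT116. The groups were well apart, at 4.69-fold lower in HCT116 (log2 fold change -2.23, SE 0.085, edgeR adjusted p = 7.0e-14).

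Among the genes followed here that had counts in every library, DUSP1 held the widest gap. DUSP1 (chr5:172768096-172771195) encodes a phosphatase that switches off MAP kinases, and its promoter window carries the cyclic AMP element printed above. DUSP1 was at 235, 249 and 229 CPM in MCF10A and at only 7.52, 6.40 and 6.08 CPM in HCT116, 40.7-fold lower (log2 fold change -5.35, SE 0.079, edgeR adjusted p = 1.6e-19). SGK1 (chr6:134169256-134318112), a kinase that promotes sodium uptake and cell survival, read 27.4, 26.3 and 26.8 CPM in MCF10A and 3.99, 4.72 and 4.42 CPM in HCT116. It was 7.04-fold lower in HCT116 (log2 fold change -2.82, SE 0.12, edgeR adjusted p = 2.3e-13), with no overlap between libraries.

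ERRFI1 (chr1:8011727-8026309), also called MIG6, is an inhibitor of the EGF receptor that EGF signalling and glucocorticoids both induce. ERRFI1 read 109, 118 and 120.3 CPM in MCF10A and 1448, 1686 and 1568 CPM in HCT116, 11.8-fold higher in HCT116 (log2 fold change 3.56, SE 0.067, edgeR adjusted p = 4.1e-18). The direction was opposite to that of DUSP1 and SGK1. EGF is named as an addition to the MCF10A medium only. CRISPLD2 (chr16:84819985-84909508), a secreted protein that dampens responses to bacterial lipopolysaccharide, stood at 10.8, 12.7 and 15.3 CPM in HCT116 and was nearly absent from MCF10A. Only 1 of the 3 non-irradiated MCF10A libraries had any CRISPLD2 counts, 8 in number, so its fitted log2 difference of 7.06 (SE 0.43, edgeR adjusted p = 5.6e-11) rests on that library (replicate 2) and became 11.59 without it.

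The circadian and Krüppel-like factors separated the lines least. PER1 (chr17:8140472-8152404), a repressor in the circadian clock that glucocorticoids induce directly, read 62.6, 48.6 and 56.5 CPM in MCF10A and 66.9, 73.3 and 83.1 CPM in HCT116. Its libraries did not overlap, but the log2 difference of 0.21 (SE 0.091, edgeR adjusted p = 0.041) lost its call when MCF10A replicate 2 or 3 or HCT116 replicate 2 or 3 was left out (adjusted p 0.068 to 0.30) and when all 18 libraries were fitted together (0.10). KLF9 (chr9:70384604-70414657), a transcriptional repressor under both circadian and glucocorticoid control, read 25.9, 24.7 and 27.9 CPM in MCF10A and 22.4, 23.9 and 21.9 CPM in HCT116, a log2 difference of -0.40 (SE 0.089, edgeR adjusted p = 0.00064). The scaling of libraries matters for differences of this size: upper-quartile factors moved the median of all genes from 0.05 to 0.25 on the log2 scale and the genes called from 6415 higher and 5974 lower to 7807 and 4704. The PER1 difference then became 0.42 and the KLF9 difference -0.19 (edgeR adjusted p = 0.061), and with library size alone -0.20 (edgeR adjusted p = 0.058), while the other 9 genes kept direction and call under both.

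**Figure D1:**
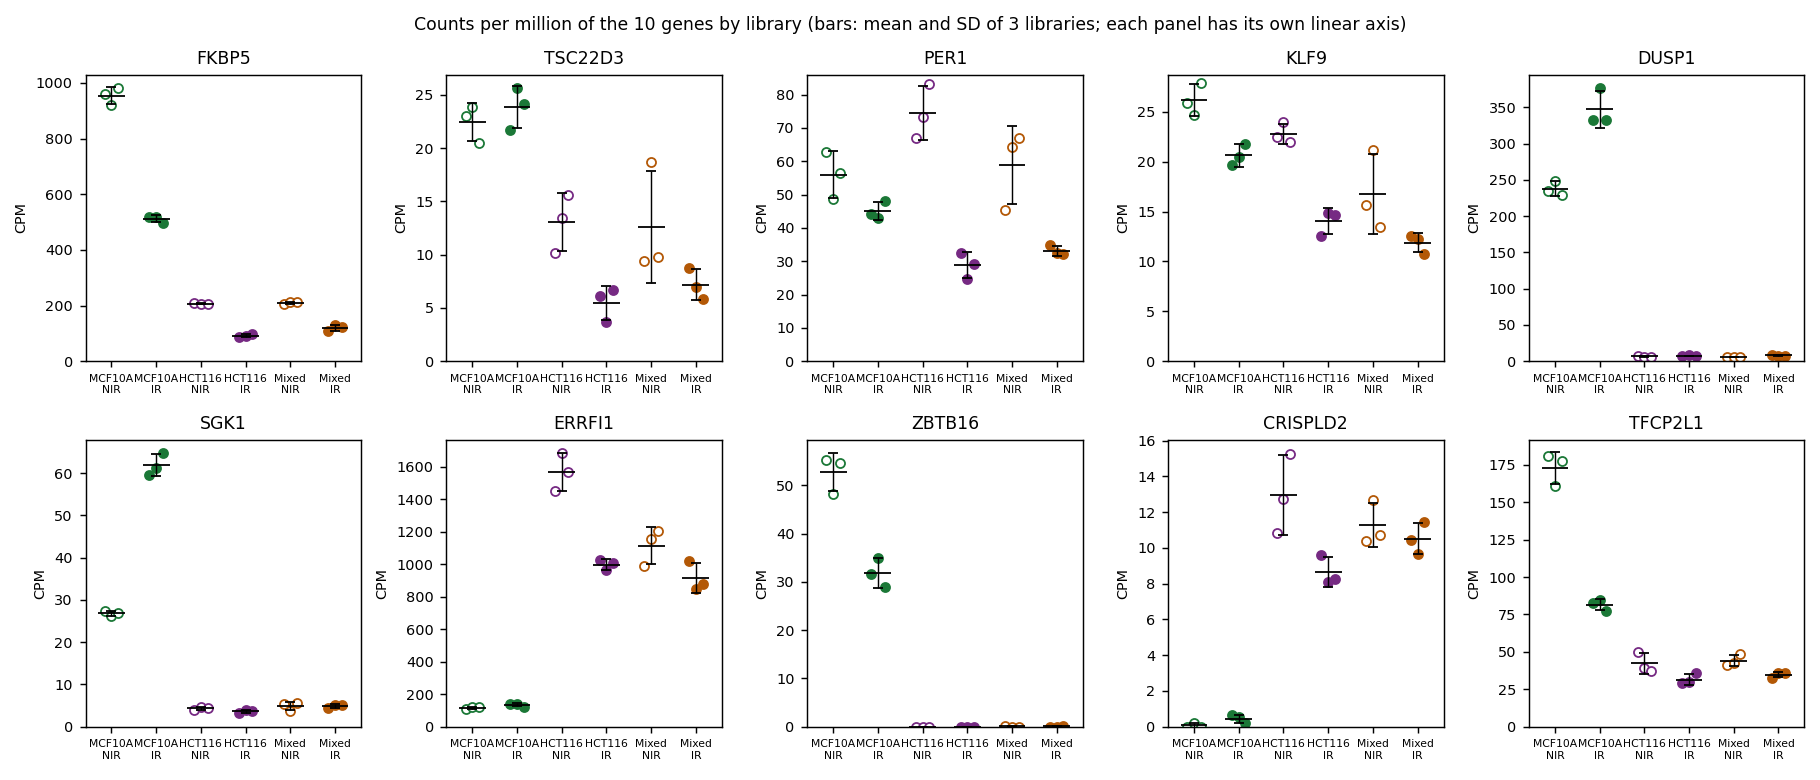
CPM of each of the 10 genes (vertical axis, linear, its own range in every panel) in the 18 libraries, grouped on the horizontal axis by culture and treatment; open points are NIR, filled points IR, and bars give the mean and SD of 3 libraries. FKBP5, DUSP1, SGK1, ZBTB16 and TFCP2L1 are high in MCF10A alone, ERRFI1 and CRISPLD2 are high in HCT116 and in the mixed cultures, and FKBP5 falls in all 3 culture types, from 954 to 512 CPM in MCF10A.

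After irradiation the lines again differed in all 10 genes (74.9% of 16932 genes were called between the irradiated lines), with 8 lower and 2 higher in HCT116. PER1 had changed sides: it stood at 44.2, 42.9 and 48.0 CPM in irradiated MCF10A and 32.4, 24.8 and 29.1 CPM in irradiated HCT116, a log2 difference of -0.88 (SE 0.088, edgeR adjusted p = 1.4e-09). SGK1 differed 20.3-fold and DUSP1 55.9-fold, both wider than without irradiation, and TFCP2L1 3.05-fold, which was narrower. ZBTB16 was at least 1047-fold lower in HCT116, or at least 524-fold with counts halved. These values share libraries with the irradiation responses below and are not independent of them.

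**Figure D2:**
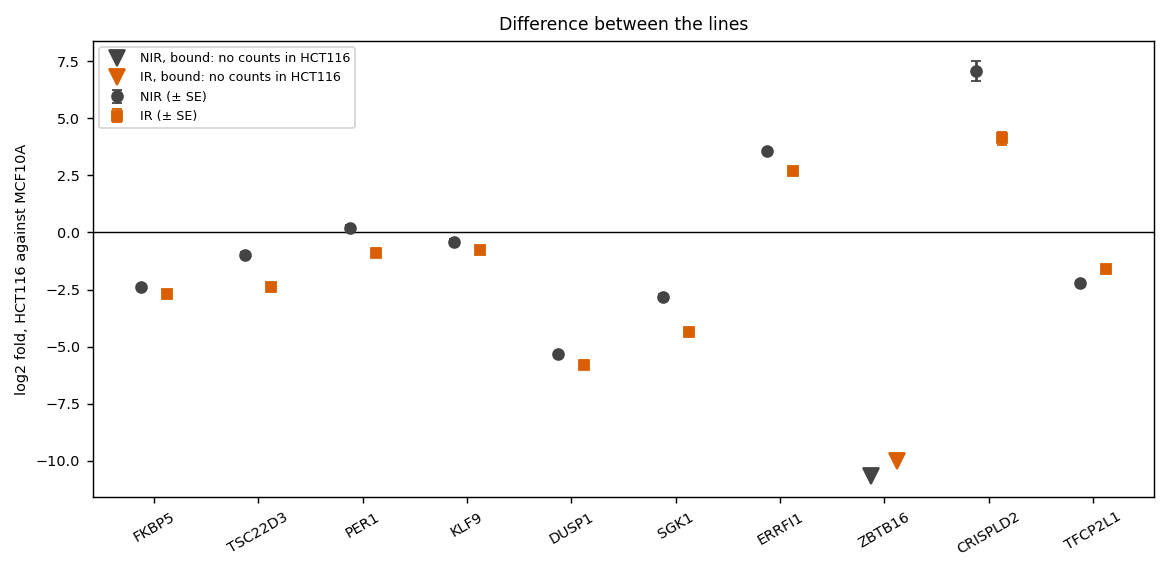
Log2 fold difference of HCT116 against MCF10A (vertical axis; positive is higher in HCT116) for each gene, without (circles) and after (squares) irradiation, with SE bars often smaller than the symbols; triangles mark the floor-based bound of ZBTB16, which had no HCT116 counts. CRISPLD2 is highest, at 7.06 and 4.12, and PER1 crosses from 0.21 to -0.88.

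In MCF10A, irradiation split the set: 5 of the 9 genes tested fell, 3 rose and 1 was not called, with CRISPLD2 too sparse to test. Across 15154 genes, 55.4% were called, 26.2% higher and 29.2% lower, and the median log2 change of the 9 genes was -0.33 beside 0.00 for all genes (0.0035 before rounding). With upper-quartile factors the genes called shifted from 3976 higher and 4419 lower to 4838 and 3579, while no call or direction of the 9 genes changed. The genes that fell were FKBP5, ZBTB16, TFCP2L1, PER1 and KLF9, and those that rose were SGK1, DUSP1 and ERRFI1.

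TFCP2L1 and FKBP5 fell furthest. TFCP2L1 went from 181, 161 and 178 CPM to 82.6, 84.6 and 77.5 CPM, a 2.16-fold fall (log2 fold change -1.11, SE 0.052, edgeR adjusted p = 1.8e-16). FKBP5 went from the values above to 518, 519 and 498 CPM, a 1.89-fold fall (log2 fold change -0.92, SE 0.038, edgeR adjusted p = 1.1e-17). For both genes every irradiated library lay below every non-irradiated one by a wide margin.

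ZBTB16 followed them, at 31.6, 35.02 and 28.9 CPM after irradiation and 1.68-fold lower (log2 fold change -0.75, SE 0.076, edgeR adjusted p = 2.1e-09). The falls of PER1 and KLF9 were smaller. PER1 read 44.2, 42.9 and 48.0 CPM after irradiation (log2 fold change -0.33, SE 0.075, edgeR adjusted p = 0.00041), and its lowest non-irradiated library, at 48.6 CPM, was just above its highest irradiated one, at 48.0 CPM. KLF9 read 19.6, 20.4 and 21.8 CPM (log2 fold change -0.36, SE 0.087, edgeR adjusted p = 0.00087), with no overlap.

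SGK1 rose most, to 59.7, 61.3 and 64.8 CPM, 2.27-fold above the non-irradiated cultures (log2 fold change 1.19, SE 0.067, edgeR adjusted p = 1.2e-14). DUSP1 rose 1.44-fold to 333, 377 and 333 CPM (log2 fold change 0.53, SE 0.049, edgeR adjusted p = 4.3e-10). The libraries of neither gene overlapped between treatments. ERRFI1 read 136, 139.5 and 122 CPM, and its call at a log2 change of 0.18 (SE 0.054, edgeR adjusted p = 0.0071) was lost without NIR replicate 1 (adjusted p = 0.062), without IR replicate 2 (0.070) and with all 18 libraries in the fit (0.066). TSC22D3 read 21.7, 25.6 and 24.2 CPM, overlapping its non-irradiated values, with a log2 change of 0.06 (95% interval -0.12 to 0.24, edgeR adjusted p = 0.59). CRISPLD2 counts were 17, 14 and 6 in the irradiated libraries against 0, 8 and 0 before.

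In HCT116, irradiation lowered 7 of the 9 genes tested and raised none of them, with DUSP1 and SGK1 not called and ZBTB16 without counts. The background was 52.5% of 16857 genes, 25.3% higher and 27.2% lower, and the median log2 change of the 9 genes was -0.64 beside 0.01 for all genes. Every one of these 7 calls held under each alternative fit and with each library left out.

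PER1 fell most in HCT116, from 66.9, 73.3 and 83.1 CPM to 32.4, 24.8 and 29.1 CPM, 2.58-fold (log2 fold change -1.37, SE 0.095, edgeR adjusted p = 2.8e-11). TSC22D3 fell 2.39-fold, from 10.2, 13.4 and 15.6 CPM to 6.15, 3.67 and 6.64 CPM (log2 fold change -1.26, SE 0.19, edgeR adjusted p = 5.4e-06). FKBP5 fell 2.23-fold to 86.9, 91.6 and 98.3 CPM (log2 fold change -1.16, SE 0.061, edgeR adjusted p = 2.4e-13). None of the 3 genes had overlapping libraries, and TSC22D3 had the widest spread relative to its level.

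KLF9 fell to 12.6, 14.9 and 14.7 CPM (log2 fold change -0.69, SE 0.10, edgeR adjusted p = 6.9e-06). ERRFI1 fell to 1022, 962 and 1007 CPM (log2 fold change -0.64, SE 0.058, edgeR adjusted p = 2.1e-09) and was still 6.41-fold above its level in irradiated MCF10A. CRISPLD2 fell to 9.63, 8.10 and 8.28 CPM (log2 fold change -0.57, SE 0.14, edgeR adjusted p = 0.0016), and TFCP2L1 fell from 50.1, 39.3 and 37.4 CPM to 28.9, 29.8 and 35.6 CPM (log2 fold change -0.42, SE 0.10, edgeR adjusted p = 0.0012). DUSP1 read 6.64, 7.93 and 7.15 CPM, overlapping its non-irradiated values (log2 change 0.13, 95% interval -0.17 to 0.43, edgeR adjusted p = 0.51). SGK1 read 3.17, 3.82 and 3.73 CPM, all below the non-irradiated libraries but by little (log2 change -0.28, 95% interval -0.67 to 0.10, edgeR adjusted p = 0.24).

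**Figure D3:**
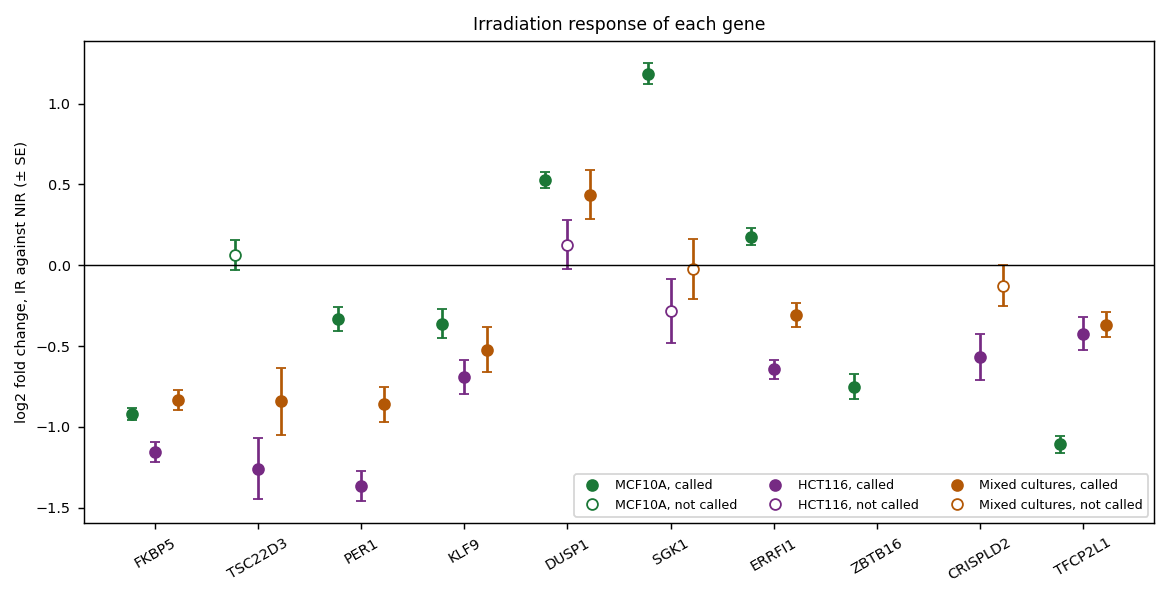
Log2 fold change of IR against NIR (vertical axis, bars are SE) for each gene in MCF10A, HCT116 and mixed cultures; filled points have an adjusted p under 0.05. SGK1 rises in MCF10A alone among the called points (1.19), PER1 falls by 1.37 in HCT116 and by 0.33 in MCF10A, and ZBTB16 and CRISPLD2 lack points where they were too sparse to test.

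Whether the 2 lines responded unequally to irradiation was tested by an interaction term, which took in all 9 genes with counts in both lines. All 9 were called, 8 with a more negative response in HCT116 and 1, TFCP2L1, with a more negative response in MCF10A, against a background of 37.3% of 18179 genes, 15.4% higher and 21.9% lower. Among the 8 is CRISPLD2, which was too sparse for a test within MCF10A and entered this fit through its HCT116 counts. Its call does not rest on a measured MCF10A response. The median difference of the 9 genes was -0.90 beside -0.10 for all genes on the log2 scale, and the latter was -0.01 with mitochondrially encoded genes left out (-0.0059 before rounding). The split over all genes turned over in that fit and in others: it was 3343 higher and 2986 lower without MCF10A IR replicate 1, 3365 and 2943 without MCF10A IR replicate 2, 3394 and 2906 without MCF10A IR replicate 3, 3382 and 2970 without HCT116 IR replicate 2, 3525 and 3267 with no filter, and 3565 and 3318 with all 18 libraries, against 2801 and 3980. The gap was widest for CRISPLD2 at -2.96 (SE 0.72), where MCF10A had few counts and the value became -7.46 without MCF10A NIR replicate 2, then for SGK1 at -1.54 (SE 0.15, edgeR adjusted p = 6.4e-09), TSC22D3 at -1.41 (SE 0.23, edgeR adjusted p = 1.9e-05) and PER1 at -1.11 (SE 0.14, edgeR adjusted p = 4.2e-07).

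ERRFI1 moved in opposite directions in the lines, and its response differed by -0.90 (SE 0.083, edgeR adjusted p = 3.7e-09). DUSP1 differed by -0.47 (SE 0.12, edgeR adjusted p = 0.0020) and FKBP5, which fell in both lines, by only -0.31 (SE 0.067, edgeR adjusted p = 0.00053). Without MCF10A IR replicate 2 these differences were -0.30 and -0.19 (adjusted p = 0.041 and 0.040), and the FKBP5 difference was also -0.20 without MCF10A IR replicate 1 or HCT116 IR replicate 2. TFCP2L1 differed by 0.60 (SE 0.12, edgeR adjusted p = 0.00021). For every one of the 10 genes tested within both lines, the interaction value was lower than the gap between those 2 responses. The median of all genes in this fit was also below 0, at -0.10. The part of library scaling in these values was not tested. The KLF9 difference of -0.41 (SE 0.13, edgeR adjusted p = 0.019) was the least secure. Its call was lost without the low-count filter (adjusted p = 0.15), with all 18 libraries in the fit (0.16), without mitochondrially encoded genes (0.077), and without any 1 of the 3 MCF10A IR libraries or of HCT116 IR replicates 1 and 2 (0.059 to 0.18).

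In the mixed cultures MCF10A gave at most 1.29% of the RNA of any library. Levels of most of the 10 genes there were near those of HCT116, with ERRFI1 called lower without irradiation and FKBP5 higher after it. Irradiation lowered 6 of the 9 genes tested (FKBP5, TSC22D3, PER1, KLF9, ERRFI1 and TFCP2L1), raised DUSP1, and left SGK1 and CRISPLD2 without a call, against a background of 49.4% of 16906 genes, 24.0% higher and 25.4% lower. The median log2 change of the 9 was -0.37 beside 0.01 for all genes. FKBP5 fell from 207, 212 and 211 CPM to 108, 129 and 123 CPM (log2 fold change -0.83, SE 0.063, edgeR adjusted p = 5.1e-10), and PER1 from 45.3, 64.4 and 66.9 CPM to 34.7, 32.5 and 32.0 CPM (log2 fold change -0.86, SE 0.11, edgeR adjusted p = 7.8e-07). Neither gene had overlapping libraries, though the NIR replicate 1 stood well below the other libraries of its group for PER1.

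Replicate 2 of the non-irradiated mixed cultures stood apart for TSC22D3 and KLF9. TSC22D3 read 9.38, 18.7 and 9.78 CPM without and 8.76, 6.98 and 5.85 CPM with irradiation (log2 fold change -0.84, SE 0.21, edgeR adjusted p = 0.0019), and DESeq2 gave it an adjusted p of 0.053. Without that library its change was -0.44 (edgeR adjusted p = 0.039). KLF9 read 15.7, 21.2 and 13.5 CPM without and 12.6, 12.3 and 10.8 CPM with irradiation (log2 fold change -0.52, SE 0.14, edgeR adjusted p = 0.0034), and without that library its change was -0.32 (adjusted p = 0.054). DUSP1 went from 5.94, 5.71 and 5.61 CPM to 9.21, 7.67 and 6.90 CPM (log2 fold change 0.44, SE 0.15, edgeR adjusted p = 0.022). That call was lost without NIR replicate 3 (adjusted p = 0.055) or IR replicate 1 (0.14).

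ERRFI1 read 987, 1151 and 1201 CPM without and 1020.4, 846 and 880.0 CPM with irradiation. Its libraries overlapped between treatments, and its log2 change was -0.31 (SE 0.073, edgeR adjusted p = 0.0013). TFCP2L1 fell from 41.2, 42.7 and 48.2 CPM to 32.7, 35.8 and 35.8 CPM without overlap (log2 fold change -0.37, SE 0.079, edgeR adjusted p = 0.00054). SGK1 lay between 3.69 and 5.61 CPM and CRISPLD2 between 9.68 and 12.7 CPM in all 6 mixed libraries.

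Against HCT116 monocultures, mixed cultures differed in 1 of the 9 genes without irradiation and in another 1 with it. Without irradiation 2.04% of 16455 genes were called, and among the 9 only ERRFI1 passed, with a log2 difference of -0.48 (SE 0.074, edgeR adjusted p = 0.0011), its mixed libraries all below the HCT116 libraries. KLF9 (-0.43, 95% interval -0.68 to -0.17, edgeR adjusted p = 0.11) and PER1 (-0.32, 95% interval -0.55 to -0.095, edgeR adjusted p = 0.18) were lower without overlap but did not pass. Without NIR replicate 2 of the mixed cultures, the library that stood apart, KLF9 passed (-0.63, adjusted p = 0.0090). After irradiation 8.56% of 17137 genes were called and only FKBP5 of the 9 passed, higher in the mixed cultures by 0.37 on the log2 scale (SE 0.063, edgeR adjusted p = 0.00016), with no overlap.

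The response to irradiation differed between mixed and HCT116 cultures in 0 of the 9 genes by edgeR (background 0.83% of 18072 genes), while 4 had an unadjusted p under 0.05 and DESeq2 called 1. That gene was FKBP5, whose difference of 0.33 (SE 0.087, edgeR adjusted p = 0.067) was called under 4 alternative fits and 1 that left out a library.

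The measured levels in the mixtures were set beside a weighted sum of the 2 monocultures, using the MCF10A RNA shares above. For FKBP5 without irradiation the sum gave 209.8 CPM and the measurement was 209.9 ± 2.79 CPM (SD, n = 3), and after irradiation the sum gave 97.5 CPM and the measurement 120.1 ± 10.8 CPM (SD, n = 3). For DUSP1 after irradiation the sum was 11.5 CPM, of which 4.31 CPM came from the MCF10A part, and the measurement was 7.93 ± 1.18 CPM (SD, n = 3), with all 3 libraries below the sum. ERRFI1 without irradiation had a sum of 1561 CPM and measured 1113 ± 112 CPM (SD, n = 3).

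ZBTB16 is informative here because HCT116 had no counts of it, so any count in the mixtures can be set against the MCF10A part alone. At the estimated shares, about 23 ZBTB16 counts would be spread over the 3 non-irradiated mixed libraries and 43 over the 3 irradiated ones, and 2 and 1 were found. The ratio of the mixed to the MCF10A level was 0.0453% without and 0.0289% with irradiation. Among all MCF10A-specific genes (at least 20 CPM in MCF10A and under 1 CPM in every HCT116 library), the median ratio was 0.443% (quartiles 0.196% and 0.986%) and 1.14% (quartiles 0.544% and 2.35%). ZBTB16 ranked among the lowest 15 of 144 genes and the lowest 9 of 143. What sets its place there was not tested, and the spread of the ratios shows that no fixed share describes all MCF10A-specific genes. HCT116 counts of these genes, allowed under 1 CPM, were not subtracted. Such counts would raise the ratios, the estimated shares and with them the ZBTB16 counts set against the 2 and 1 found.

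The hormone's receptors and the enzymes that interconvert its active and inactive forms also differed between the lines. NR3C1, the glucocorticoid receptor gene, stood at 181 ± 5.89 CPM in non-irradiated MCF10A and 49.1 ± 6.51 CPM in non-irradiated HCT116 (SD, n = 3), 4.24-fold lower in HCT116 (log2 fold change -2.08, SE 0.074, edgeR adjusted p = 2.6e-14). Irradiation moved it by -0.27 in MCF10A (edgeR adjusted p = 2.0e-05) and by 0.22 in HCT116 (edgeR adjusted p = 0.041), and these responses differed by 0.41 (SE 0.10, edgeR adjusted p = 0.0025). The NR3C1 libraries of HCT116 overlapped between treatments, at 43.7 to 56.3 CPM without and 51.7 to 62.2 CPM with irradiation. NR3C2, the mineralocorticoid receptor, which also binds cortisol, was 4.82-fold higher in HCT116 (7.48 ± 0.607 against 1.34 ± 0.248 CPM; SD, n = 3) and fell after irradiation in both lines, by 1.57 in MCF10A and by 1.01 in HCT116 on the log2 scale (edgeR adjusted p = 0.0039 and 4.8e-05).

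HSD11B1, which regenerates active cortisol from cortisone, read 2.28 ± 0.238 CPM in non-irradiated and 9.03 ± 0.829 CPM in irradiated MCF10A (SD, n = 3), a 3.88-fold rise (log2 fold change 1.95, SE 0.17, edgeR adjusted p = 1.1e-10). In HCT116 it summed to 15 counts over 3 libraries without and 14 with irradiation. HSD11B2, which inactivates cortisol, was 4.13-fold higher in non-irradiated HCT116 than in MCF10A (6.05 ± 0.697 against 1.27 ± 0.662 CPM; SD, n = 3; log2 fold change 2.04, edgeR adjusted p = 5.6e-06). It was called in neither line after irradiation (edgeR adjusted p = 0.28 in MCF10A and 0.92 in HCT116). ABCB1, an efflux pump that exports glucocorticoids among other substrates, had no counts in non-irradiated MCF10A and stood at 7.98 ± 1.22 CPM in non-irradiated HCT116. Of the 6 genes of this list, which also holds H6PD, 1 of 5 tested rose and 3 fell in each line after irradiation, with medians of -0.27 in MCF10A and -0.70 in HCT116 beside 0.00 (0.0035) and 0.01 (0.0072) for all genes, of which 55.4% and 52.5% were called.

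**Figure D4:**
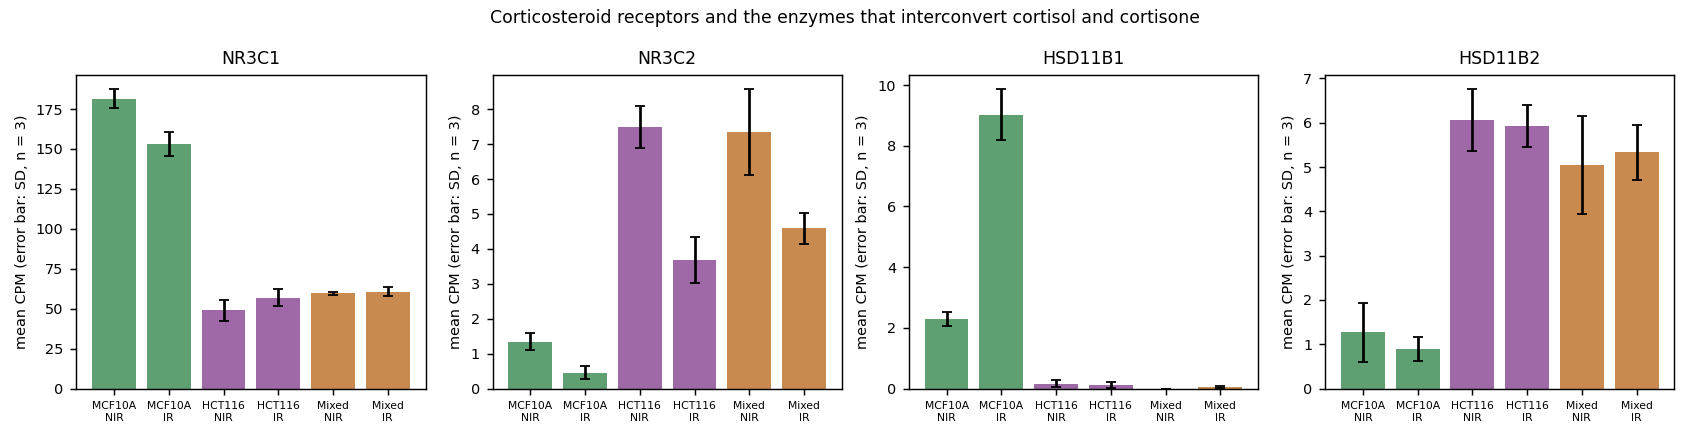
Mean CPM (vertical axes from 0, error bars SD of 3 libraries) of the receptor genes NR3C1 and NR3C2 and of the cortisol-converting enzymes HSD11B1 and HSD11B2 in the 6 groups on the horizontal axis. NR3C1 and HSD11B1 are highest in MCF10A, where HSD11B1 goes from 2.28 to 9.03 CPM, and NR3C2 and HSD11B2 are highest in HCT116 and the mixed cultures.

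Of 12 chaperones and co-chaperones that fold and load the receptor, 9 fell, 2 rose and 1 was not called in irradiated MCF10A, where 29.2% of all genes fell and 26.2% rose, with a median log2 change of -0.59. HSP90AA1, which encodes inducible HSP90, went from 2931 ± 28.2 to 1519 ± 41.8 CPM (SD, n = 3; log2 fold change -0.97, edgeR adjusted p = 2.7e-19), and FKBP4, which encodes the co-chaperone that FKBP5 competes with, fell by 0.74 (edgeR adjusted p = 7.8e-14). In HCT116 6 of the 12 fell and 3 rose, with a median of -0.22, beside 27.2% and 25.3% of all genes. Between the non-irradiated lines, 6 of the 12 were lower and 4 higher in HCT116 (36.1% and 38.7% of all genes), and HSPA8 stood at -1.40 (edgeR adjusted p = 4.2e-13). HSPA1A also read far lower in HCT116 (-6.43), but it shares near-identical sequence with HSPA1B, so the split of reads between them is uncertain.

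Of 14 receptor coregulators, 4 rose and 6 fell in MCF10A and 2 rose and 5 fell in HCT116 (medians -0.10 and -0.05). With 10 and 7 of 14 called beside 55.4% and 52.5% of all genes, the HCT116 count was near the background. NRIP1, a corepressor of nuclear receptors, rose in both lines, from 50.7 ± 2.48 to 102 ± 11.5 CPM in HCT116 (SD, n = 3; log2 fold change 1.02, edgeR adjusted p = 1.1e-10) and by 0.57 in MCF10A (edgeR adjusted p = 8.5e-11). It was lower in non-irradiated HCT116 than in MCF10A by 1.05 on the log2 scale (edgeR adjusted p = 2.8e-11), as were the coactivator NCOA3 (-1.39, edgeR adjusted p = 3.6e-13) and the corepressor NCOR1 (-1.35, edgeR adjusted p = 9.1e-12). Between the non-irradiated lines, 5 of the 14 were higher and 7 lower in HCT116, beside 38.7% and 36.1% of all genes.

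A further 25 genes described as glucocorticoid-induced in other systems gave no common direction. In MCF10A 10 of the 23 tested rose and 9 fell (median -0.04; 26.2% and 29.2% of all genes), and in HCT116 5 rose and 10 fell (median -0.10; 25.3% and 27.2% of all genes). MT1X, a metallothionein, fell most in MCF10A, from 12.1 ± 0.875 to 4.82 ± 0.913 CPM (SD, n = 3; log2 fold change -1.35, edgeR adjusted p = 7.3e-09), with CEBPD, a transcription factor of the acute phase response, at -1.003 (edgeR adjusted p = 9.9e-10). RHOB, a small GTPase of the cytoskeleton and vesicle traffic, rose by 1.05 there (edgeR adjusted p = 2.6e-13). In HCT116 the cell cycle inhibitor CDKN1C fell from 14.0 ± 0.354 to 2.39 ± 0.391 CPM (log2 fold change -2.52, edgeR adjusted p = 5.5e-12), ANGPTL4, a secreted regulator of lipid uptake, fell by 1.37 (edgeR adjusted p = 9.6e-11), and LCN2, an iron-binding secreted protein, rose from 5.48 ± 0.769 to 29.6 ± 2.02 CPM (log2 fold change 2.44, edgeR adjusted p = 7.9e-14).

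Between the non-irradiated lines, 16 of these 23 genes were lower and 6 higher in HCT116, beside 36.1% and 38.7% of all genes, with a median of -0.84 beside 0.05 for all genes. The NF-κB inhibitor TNFAIP3 stood at 103 ± 2.92 CPM in MCF10A and 6.56 ± 0.375 CPM in HCT116 (SD, n = 3; log2 fold change -4.18, edgeR adjusted p = 4.7e-18). CEBPD (-4.13), the metallothionein MT2A (-3.49) and the apoptosis inhibitor BIRC3 (-3.38) were also far lower in HCT116 (edgeR adjusted p = 1.9e-13, 1.7e-12 and 3.2e-18).

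Genes that glucocorticoids are known to repress, mostly cytokines and chemokines, moved in one direction in MCF10A. All 14 of the 15 listed that could be tested rose after irradiation, where 26.2% of all genes rose, with a median log2 change of 1.19. IL1B, an inflammatory cytokine, went from 313 ± 21.3 to 961 ± 73.6 CPM (SD, n = 3; log2 fold change 1.60, edgeR adjusted p = 7.3e-20), the neutrophil chemokine CXCL8 from 131 ± 9.37 to 356 ± 24.97 CPM (1.42, edgeR adjusted p = 1.8e-18), and LIF and the adhesion molecule ICAM1 rose by 1.20 and 1.19 (edgeR adjusted p = 1.9e-12 and 1.2e-13). In HCT116 2 of 9 rose, 1 fell and 6 were not called (median 0.16; 25.3% of all genes rose and 27.2% fell). The difference between responses was called for 8 of 14, each more negative in HCT116, beside 37.3% of all genes. Only 9 of the list had enough counts for a test within HCT116, so the others entered through their MCF10A counts. CSF2, for example, had 14 counts over the non-irradiated HCT116 libraries and 0 over the irradiated ones. For such sparse genes a call says little about how HCT116 itself responded, and the 8 calls were not split by this. Without irradiation 9 of the 12 tested were lower and 2 higher in HCT116, beside 36.1% and 38.7% of all genes. IL1A and IL1B read 426 ± 25.6 and 313 ± 21.3 CPM in MCF10A and at most 1.09 CPM in any non-irradiated HCT116 library. CCL20 and CXCL1 were lower there, with log2 differences of -8.44 and -8.34 (edgeR adjusted p = 8.1e-17 and 9.4e-19). CCL20 summed to 18 and CXCL1 to 97 counts over the non-irradiated HCT116 libraries, so the sizes rest on few counts. CCL20, and IL6 with 6 such counts, passed the low-count filter through MCF10A alone, which fixed their direction.

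**Figure D5:**
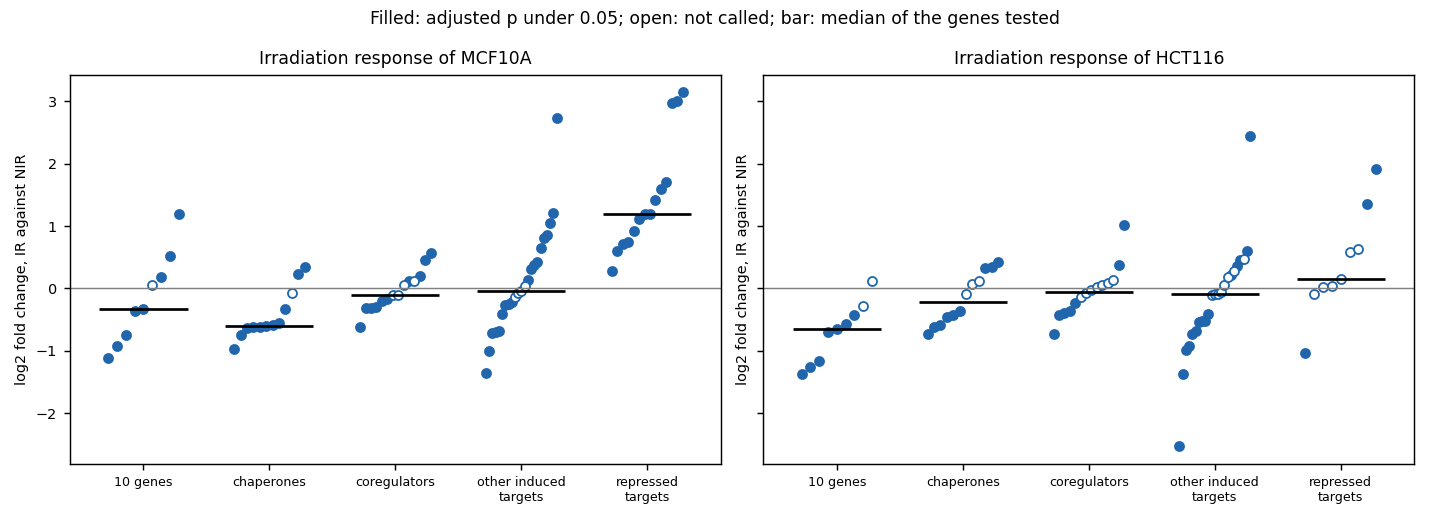
Log2 fold change of IR against NIR (vertical axis) for every tested gene of 5 lists (horizontal axis) in MCF10A (left) and HCT116 (right); filled points have an adjusted p under 0.05, and bars are list medians. In MCF10A all 14 repressed targets lie above 0 and most chaperones below it; in HCT116 the 9 tested of the 10 genes have a median of -0.64.

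Close relatives of the 10 genes, 16 in number, were followed as well. In MCF10A 5 of 15 tested rose and 6 fell (26.2% and 29.2% of all genes), and in HCT116 4 rose and 7 fell (25.3% and 27.2% of all genes), with medians of -0.21 and -0.17. Without irradiation 7 of 14 were higher and 5 lower in HCT116, beside 38.7% and 36.1% of all genes. DUSP5 (2.41), TSC22D1 (1.57), SGK3 (1.38) and PER2 (1.14) were higher in HCT116 by these log2 differences (edgeR adjusted p = 2.9e-16, 3.3e-13, 1.9e-07 and 1.4e-08), while DUSP1, TSC22D3 and SGK1 were lower there. PER1, like PER2, was higher in HCT116, but only by 0.21.

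Basal mammary markers moved with irradiation too. Their summed level was 8259 to 8817 CPM in non-irradiated and 12961 to 13364 CPM in irradiated MCF10A, 483 to 548 and 976 to 1167 CPM in HCT116, and 478 to 580 and 1155 to 1373 CPM in mixed cultures, and 8 of 10, 8 of 8 and 10 of 10 tested rose, beside 26.2%, 25.3% and 24.0% of all genes. In HCT116 and mixed cultures most of the sum was ITGB4, an integrin subunit, at 477 ± 31.4 and 978 ± 87.4 CPM in HCT116 and 460.3 ± 44.96 and 1025 ± 102 CPM in mixed cultures (NIR and IR; SD, n = 3). COL17A1, a hemidesmosome collagen, rose by 1.18 in MCF10A and by 2.88 in HCT116 on the log2 scale. KRT5 reached 0.777 to 2.60 CPM in irradiated HCT116, while TP63 had 4 counts over those 3 libraries and ZBTB16 had 0. The intestinal list summed to 12.7 to 14.3 CPM in non-irradiated and 18.0 to 18.9 CPM in irradiated HCT116, to 9.86 to 11.2 and 17.2 to 17.9 CPM in mixed cultures, and to at most 1.06 CPM in MCF10A. The part of these shifts in the results for the 10 genes was not tested.

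Across the 18 libraries the 10 genes did not share one pattern. Likeness was measured as the root mean square difference of centred log2(CPM + 0.5) values, where 0 means the same pattern, over the 12266 genes with a group mean of at least 5 CPM. FKBP5 and TFCP2L1 were 0.39 apart, PER1 and KLF9 0.36, whereas FKBP5 and ERRFI1 were 2.59 apart. The genes nearest to a member, among those reported, were RPS6KA2 (0.24) and SOWAHC (0.24) for FKBP5, ITPRIP (0.28) and TRIB3 (0.28) for TSC22D3, ACACB (0.17) and SUN2 (0.18) for PER1, DBI (0.15) and SLC39A10 (0.17) for KLF9, and NCOA7 (0.16) and PHF14 (0.17) for TFCP2L1. For ERRFI1 they were CD40 (0.17) and LLGL2 (0.18). For DUSP1, SGK1, ZBTB16 and CRISPLD2 no nearest gene is named, because the values near 0 CPM in one line, of the gene itself or of its nearest genes, make the distance depend on the pseudocount of 0.5. These distances are dominated by the difference between the lines and describe these libraries only.

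The order of the 6 groups by mean level was led by an MCF10A group for 7 of the genes and by non-irradiated HCT116 for PER1, ERRFI1 and CRISPLD2. For FKBP5 the order was MCF10A NIR, MCF10A IR, mixed NIR, HCT116 NIR, mixed IR and HCT116 IR, and only mixed NIR and HCT116 NIR overlapped among neighbours. For DUSP1 and SGK1 irradiated MCF10A led, followed by non-irradiated MCF10A, with the other 4 groups at under 10 CPM. For TSC22D3 the 2 MCF10A groups overlapped with each other, as did non-irradiated HCT116 with mixed NIR and irradiated HCT116 with mixed IR. For KLF9 the groups MCF10A IR, mixed NIR, HCT116 IR and mixed IR each overlapped with the next.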

How the data were processed

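Poly(A)-selected RNA was sequenced in 18 libraries. Raw counts per gene symbol, 1 table per library, were deposited by the authors; the submitters' processing notes name fastp, STAR, featureCounts and GRCh38, and versions, annotation and strand setting are not given in the sources used here. All 18 value columns were mapped to samples by their labels, and 0 were left over. Low counts were mostly even (68.4% of values from 1 to 10), so fits with counts halved were added as an alternative.

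Each comparison was fitted on the whole table with edgeR 4.0.16 in R 4.3.3 (TMM factors, filterByExpr, quasi-likelihood test, 2-sided, Benjamini-Hochberg over all genes tested), using only the libraries of the groups compared. Each standard error is the absolute log2 fold change divided by the square root of F, and 95% intervals are the estimate ± 1.96 SE. The responses of 2 cultures were compared with an interaction term. The procedure was tested on simulated data. Folds against a group without counts use a floor of 3 counts over the group and library totals without TMM factors. The share of MCF10A RNA in mixtures is the estimate from genes with at least 20 CPM in one line and below 1 CPM in all libraries of the line compared. HCT116 counts of the MCF10A-specific genes were not subtracted and would raise this share. The standard errors, and so the intervals, take in the spread between replicate libraries as well as counting error. The multiple of 1.96 makes no allowance for the few libraries per group, so the intervals may be too narrow. Floors take in no spread between replicates.

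The 10 genes and the pathway lists were chosen with earlier results of these data known. Beyond the 10 genes, the text names up to 4 genes per list and comparison with an absolute log2 change of at least 1 and a group mean of at least 10 CPM, the receptor and hormone genes, and 2 genes of most similar pattern per member; other genes named beside them were chosen after their values were seen. The alternatives were other scaling factors, no filter, DESeq2 1.42.0, counts halved, all 18 libraries in 1 fit, no mitochondrially encoded genes, a replicate block, and each library left out. A gene among those of most similar pattern, and part of the description and check of the HCT116 line, are not reported here. Promoter windows and gene positions are from RefSeq, GRCh38.p14. Figures were drawn with matplotlib 3.10.9.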

Additional observations from a re-analysis of the deposited data

Results flagged for a closer look

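The response to irradiation differed between HCT116 and MCF10A, by the interaction term of the edgeR fit, for all 9 genes with counts in both lines. Differences are HCT116 minus MCF10A on the log2 scale. Of all 18179 genes tested, 37.3% were called, 15.4% higher and 21.9% lower. The median difference of all genes was -0.10. The response was more negative in HCT116 for FKBP5 (-0.31), TSC22D3 (-1.41), PER1 (-1.11), KLF9 (-0.41), DUSP1 (-0.47), SGK1 (-1.54), ERRFI1 (-0.90) and CRISPLD2 (-2.96), and more negative in MCF10A for TFCP2L1 (0.60). FKBP5, PER1, KLF9 and TFCP2L1 fell in both lines, so for these the difference is one of size. SGK1, DUSP1 and ERRFI1 rose in MCF10A, where HCT116 had a fall for ERRFI1 and no call for the other genes. TSC22D3 fell in HCT116 and had no call in MCF10A. The CRISPLD2 value rests on few MCF10A counts, too few for a test within that line. The KLF9 call was lost with no filter (edgeR adjusted p = 0.15), with all 18 libraries (0.16) and without mitochondrially encoded genes (0.077). It was also lost when 1 of several irradiated libraries was left out (0.059 to 0.18). The medium differed between the lines as well.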

How the results depend on the processing

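Of the fits of single genes without leaving out a library, 721 kept direction and call, 9 lost a call, 14 gained one and 3 reversed an uncalled sign; with 1 library left out, 578 kept both, 14 lost a call, 3 gained one and 11 reversed, all of them uncalled. The reversals were SGK1 in mixed cultures (-0.02), at 0.014 with upper-quartile factors, 0.0053 with library size only, 0.020 with all 18 libraries and -0.19 to 0.090 with 1 library left out; TSC22D3 in MCF10A, -0.00011 to 0.12; TSC22D3 in mixed against HCT116 cultures without irradiation, -0.43 to 0.14; DUSP1 after irradiation there, -0.0080 to 0.21; and TFCP2L1 in the response difference of mixed minus HCT116 cultures, -0.092 to 0.13. Counts that compare mixed with HCT116 cultures moved most. Without irradiation, 335 genes and 1 of the 10 were called, against 671 and 3 with no filter, 576 genes with DESeq2, 768 and 2 with all 18 libraries, 145 to 313 and 1 to 2 with 1 library left out (lowest without Mixed NIR replicate 1, 178 without HCT116 NIR replicate 2). After irradiation, 1467 genes and 1 of the 10 were called, against 2 of the 10 with no filter and with all 18 libraries, and 866 to 1312 genes and 1 to 2 with 1 library left out (lowest without Mixed IR replicate 2). In the response difference, 150 genes and 0 of the 10 were called, against 336 and 3 with no filter, 327 and 1 with DESeq2, 1 with library size only, 1 with all 18 libraries, and 64 to 197 and 0 to 1 with 1 library left out (lowest without Mixed IR replicate 3). The cause of these shifts was not tested.

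The labels tie no libraries together by replicate number, and residuals of same-numbered libraries correlated between -0.217 and 0.238 over 45 pairs (median -0.014). With a replicate block, 716 genes and 3 of the 10 were called between mixed and HCT116 cultures without irradiation (PER1 and KLF9 added) and 2220 and 2 after it (ERRFI1 added), and PER1 between the non-irradiated lines had an adjusted p of 0.055; 4 of 83 calls of single genes changed.

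Scaling moved the split of all genes most between the lines: with library size only, 8098 genes were higher and 4873 lower in irradiated HCT116, against 6446 and 6230. Without mitochondrially encoded genes, the response difference of the lines was higher for 3571 and lower for 3225 genes, against 2801 and 3980. With genes specific to MCF10A taken from 50 CPM, its RNA share was 0.345% and 1.07%. Depth limits ZBTB16 in HCT116 and CRISPLD2 in MCF10A, where a few counts set the values.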
